A study of Mus musculus with 6 samples.

Results

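The mitochondrial genome of the mouse carries 37 genes, and all of them were taken here by their symbols, which start with mt- in the GENCODE M21 annotation of the GRCm38 build. They are 13 mRNA genes, 2 rRNA genes and 22 tRNA genes, out of 55450 annotated genes. Their reads were counted in epididymal white adipose tissue, a visceral fat depot that lies against the epididymis, in 3 control mice (ctrl; mice 5, 6 and 10) and 3 mice exposed to cold (mice 7, 12 and 16). All were male wild type C57BL/6N mice. The protocols, whose text is the same for both groups, give an age of 20 weeks, base housing at 22 to 24 °C and, for the cold, single housing at 4 °C for 24 h. Whether control mice were housed alone is not stated. Libraries were made from 100 ng of poly-A RNA and sequenced by nanopore as direct cDNA, without a PCR step. The comparison asks how the transcripts of the mitochondrial genome differ in this fat depot after a day in the cold.

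Mitochondrial DNA is a small circle whose strands are each transcribed as long precursors. The precursors are cut into rRNAs, mRNAs and tRNAs, mostly at the tRNAs that lie between the other genes. The mRNAs encode core subunits of respiratory chain complexes I, III and IV and of the ATP synthase (complex V), and all other subunits come from nuclear genes. White fat cells hold few mitochondria, while brown and beige fat cells are rich in them and burn fuel for heat. Selection on poly-A favours RNAs with a tail, which most mitochondrial mRNAs receive and mature tRNAs lack, so the levels below are those of the captured RNA.

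Sequences of 4 tRNA genes are shown first because they held 96.5% of all reads on mitochondrial tRNA genes. They are GENCODE M21 transcript sequences on GRCm38, written 5′ to 3′ on the gene's own strand as DNA, and capitals mark the anticodon, the bases that pair with the codon. All 4 lie on the minus strand, mt-Tq (glutamine) at chrM:3772-3842, mt-Ts1 (a serine tRNA) at chrM:6870-6938, mt-Te (glutamate) at chrM:14071-14139 and mt-Tp (proline) at chrM:15356-15422.
mt-Tq: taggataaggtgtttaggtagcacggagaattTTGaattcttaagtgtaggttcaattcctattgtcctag
mt-Ts1: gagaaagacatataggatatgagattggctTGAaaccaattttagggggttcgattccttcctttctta
mt-Te: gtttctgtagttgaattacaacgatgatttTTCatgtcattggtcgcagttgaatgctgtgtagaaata
mt-Tp: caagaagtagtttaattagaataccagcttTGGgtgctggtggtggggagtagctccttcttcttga

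Sequences of 2 short reading frames that share bases with their neighbour are shown because counts of such genes can take reads of the neighbour. In mt-Atp8 (chrM:7766-7969, plus strand, 204 bases) capitals mark the 43 bases that are also the start of mt-Atp6. In the last 60 bases of mt-Nd4l (chrM:10114-10173, plus strand) capitals mark the 7 bases shared with mt-Nd4. Of the 37 genes, 9 pairs overlap in this way, the others by 1 to 14 bases.
mt-Atp8: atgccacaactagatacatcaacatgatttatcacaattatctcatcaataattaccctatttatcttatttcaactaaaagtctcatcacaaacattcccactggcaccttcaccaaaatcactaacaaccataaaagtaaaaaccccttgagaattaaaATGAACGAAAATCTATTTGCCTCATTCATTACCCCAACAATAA
mt-Nd4l, last 60 bases: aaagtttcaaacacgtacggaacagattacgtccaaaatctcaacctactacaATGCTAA

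Total reads per mouse were between 726283 and 1341592, and 725273 to 1339385 of them were assigned to genes. A gene with 0 reads can have a level of up to 3 reads, which is 2.24 to 4.14 CPM (counts scaled to 1000000 reads assigned to genes). Between 48954 and 80708 reads per mouse fell on mitochondrial genes, 391142 in all. Over all genes, 64 of 9772 tested passed the threshold of 0.05 on the adjusted p of edgeR's quasi-likelihood test (0.655%). The summed CPM of 10 adipocyte markers was 49030 to 53501 in control and 49740 to 53557 in cold mice. Single markers did differ, as 3 were higher and 2 lower with an unadjusted edgeR p under 0.05. Among all genes tested, 4.72% were higher and 3.71% lower with such a p. Of the 10, 1 passed the threshold by edgeR, higher in cold, and 2 each by DESeq2 and limma-voom. The summed CPM of 10 epididymal epithelium markers was 10.5 to 41.6 in control mice and 412, 194 and 143 in cold 7, cold 12 and cold 16. Of these markers 5 were tested, and 4 passed the threshold by edgeR, all higher in cold. By DESeq2 3 passed and by limma-voom 4. Markers of sperm and spermatids (8 genes) summed to 1.07 to 13.4 CPM in control and to 142, 153 and 10.2 CPM in cold 7, cold 12 and cold 16. The sum of 1.07 CPM, in ctrl 5, is that of 1 read. None of the 8 passed the filter on low counts, so none was tested. Each marker of these lists had reads in at least 1 mouse, but could be at 0 in single mice. Cold 16 also had 4.38% of its reads on transcripts annotated as retained introns, against 3.25% to 3.63% in the other mice.

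Mitochondrial genes took a larger share of the reads in each cold mouse than in any control mouse. All 37 genes together held 5.76% (ctrl 5), 6.03% (ctrl 6) and 6.10% (ctrl 10) of the reads assigned to genes in control mice, and 6.75% (cold 7), 6.45% (cold 12) and 7.86% (cold 16) in cold mice. The groups did not overlap, and cold 16 was the highest of the 6. Means were 5.96% ± 0.179 and 7.02% ± 0.741 (SD, n = 3 each), a ratio of 1.18 that was 1.11 without cold 16. The 95% Wilson interval of each share spanned at most 0.119 percentage points, counting error only. In bulk tissue a change in the make-up of cells and a change in RNA per cell cannot be told apart. Epididymal epithelium markers were also higher in every cold mouse, highest in cold 7 and lowest in cold 16 among the cold mice, and their part in the shares was not tested.

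The larger share lay in the mRNAs, which made up 94.9% to 96.3% of the mitochondrial reads of a mouse. The 13 mRNAs held 5.50%, 5.74% and 5.85% of gene reads in control mice 5, 6 and 10, and 6.497%, 6.18% and 7.46% in cold mice 7, 12 and 16. The 2 rRNAs held 0.110%, 0.141% and 0.109% against 0.135%, 0.135% and 0.124%. The 22 tRNAs held 0.147%, 0.140% and 0.136% against 0.117%, 0.140% and 0.276%. Control and cold mice did not overlap in the mRNA share and overlapped in the other two. For tRNAs the ratio of cold to control was 1.26 with all mice and 0.912 without cold 16.

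**Figure D1:**
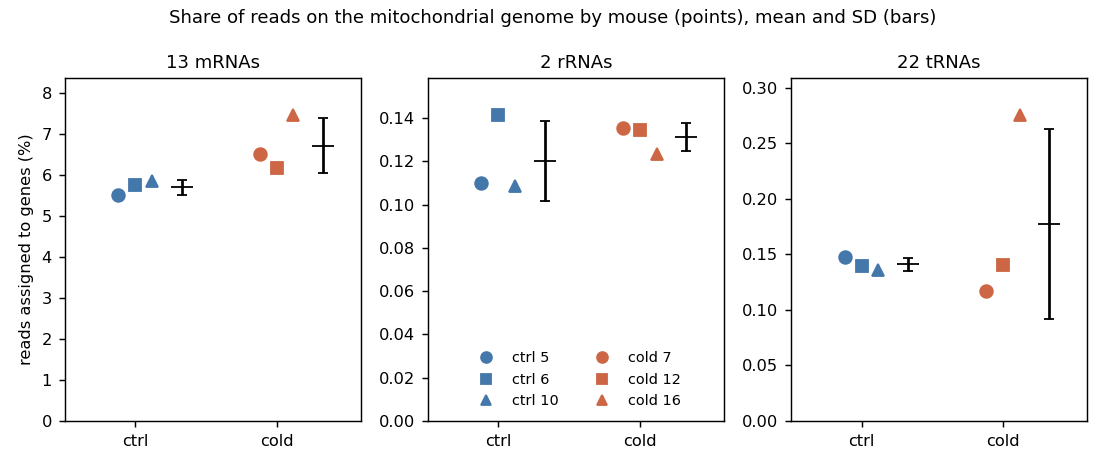
Share of the reads assigned to genes (%, vertical axes from 0) that fell on mitochondrial mRNA, rRNA and tRNA genes, with 1 point per mouse and the mean with its SD as a bar beside each group of 3 mice. The cold mice lie above all control mice for mRNA (6.18% to 7.46% against 5.50% to 5.85%), the groups overlap for rRNA and tRNA, and cold 16 stands above the other mice for tRNA at 0.276%.

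Of the 37 genes, 36 had at least 1 read, and 21 passed the filter on low counts and were tested (13 mRNAs, 2 rRNAs and 6 tRNAs). None of the 21 passed the threshold by edgeR (adjusted p from 0.182 to 0.996), by DESeq2 or by limma-voom. Over all genes 0.655%, 0.471% and 0.491% of those tested passed by these tools. With no adjustment, 10 of the 21 had an edgeR p under 0.05, all 10 were mRNAs and all were higher in cold. Among all genes tested 4.72% had such a p and were higher, and 3.71% had one and were lower. The log2 fold change of cold against control was above 0 in 18 of the 21, the exceptions being mt-Rnr1, mt-Tc and mt-Tp. It was above 0 in all 13 mRNAs, against 50.8% of all genes tested, with a median of 0.33 (range 0.07 to 0.68) beside 0.01 for all genes. Without cold 16 the median of the mRNAs was 0.17. The mRNAs come from shared precursors in the same mice, so they are not independent of each other.

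CPM of 9 of the 13 mRNAs was higher in every cold mouse than in every control mouse, against 5.96% of all genes tested. None was lower in every cold mouse, against 7.7% of all genes. With only the second of the 2 files of each mouse the count was 5, and without cold 12 it was 12. The 4 mRNAs whose groups overlapped were mt-Nd3, mt-Nd4l, mt-Nd4 and mt-Nd5, all of complex I. Cold 16 was the highest of the 6 mice for 10 of the 13 mRNAs.

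**Figure D2:**
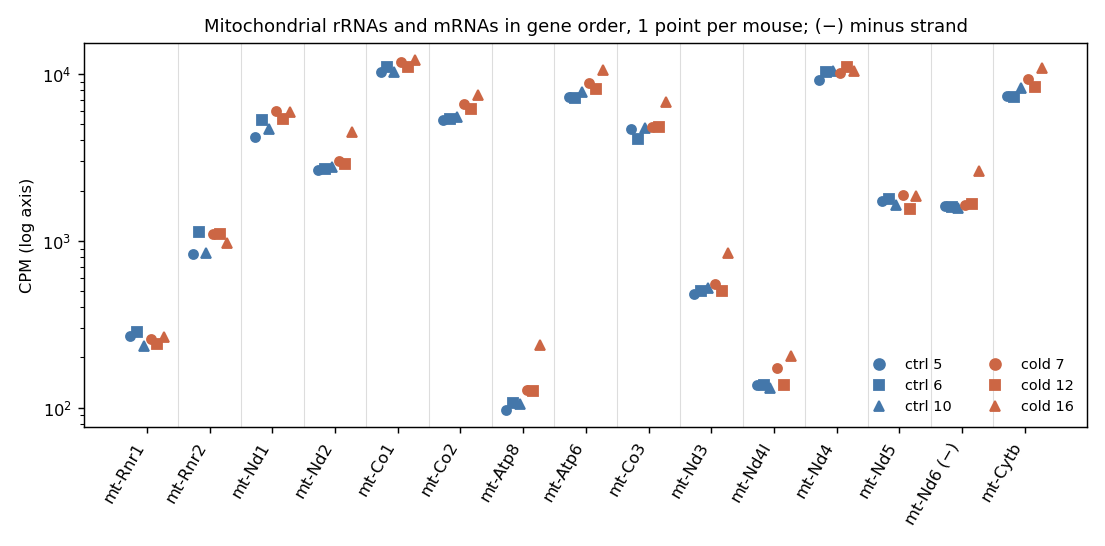
CPM of the 2 rRNAs and 13 mRNAs on a log axis, in the order of the genome, with 1 point per mouse. For 9 mRNAs the 3 cold mice lie above the 3 control mice, and cold 16 is the highest point of 10 mRNAs.

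Complex IV, cytochrome c oxidase, passes electrons to oxygen, and its 3 mitochondrial subunits form the catalytic core. mt-Co1 (ENSMUSG00000064351.1, chrM:5328-6872, plus strand) encodes the subunit that binds oxygen, and had 10228, 10977 and 10343 CPM in control mice 5, 6 and 10, and 11860, 11064 and 12124 CPM in cold mice 7, 12 and 16. The groups did not overlap, but cold 12 lay just above ctrl 6. Means were 10516 ± 404 and 11683 ± 552 CPM (SD, n = 3), a log2 fold change of 0.18 ± 0.12 (SE, edgeR adjusted p = 0.777). mt-Co2 (ENSMUSG00000064354.1, chrM:7013-7696, plus strand), which takes electrons from cytochrome c, had 5304, 5413 and 5536 CPM in control and 6610, 6216 and 7523 CPM in cold mice. Every cold mouse was clearly above the narrow range of the controls, 5418 ± 116 against 6783 ± 670 CPM (SD, n = 3). The log2 fold change was 0.35 ± 0.12 (SE, edgeR adjusted p = 0.357) and 0.28 without cold 16. mt-Co3 (ENSMUSG00000064358.1, chrM:8607-9390, plus strand), the other core subunit, had 4660, 4090 and 4734 CPM in control and 4793, 4786 and 6774 CPM in cold mice. Cold 7 and cold 12 lay close to ctrl 10, and cold 16 stood far above the rest. Its log2 fold change of 0.30 ± 0.14 (SE, edgeR adjusted p = 0.573) was 0.13 without cold 16.

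Complex V makes ATP, and its mitochondrial subunits are mt-Atp6, part of the proton channel, and the small mt-Atp8, which helps hold the complex together. mt-Atp8 (ENSMUSG00000064356.3) had 97.1, 106 and 105 CPM in control mice 5, 6 and 10, and 128, 126 and 239 CPM in cold mice 7, 12 and 16. The groups did not overlap, and cold 16 was far above the other cold mice. Its log2 fold change of 0.68 ± 0.20 (SE, edgeR adjusted p = 0.182) was the largest of the 21 genes tested, and it was 0.33 without cold 16. The adjusted p of this gene ranged from 0.00433 to 0.561 over the alternatives, and it passed the threshold with no filter (0.00433) and without cold 7 (0.0259), both by edgeR. Over all genes 371 and 199 passed in these settings, against 64 in the main fit. mt-Atp6 (ENSMUSG00000064357.1, chrM:7927-8607, plus strand) had 7330, 7221 and 7824 CPM in control and 8853, 8092 and 10615 CPM in cold mice. All cold mice were above all controls (7459 ± 322 against 9187 ± 1294 CPM, SD, n = 3), with a log2 fold change of 0.33 ± 0.13 (SE, edgeR adjusted p = 0.454). Both genes share a transcript, and how reads spanning both were assigned is not given in the sources used here. The level and fold change of mt-Atp8 are therefore uncertain. Reads of mt-Atp8 per 100 reads of mt-Atp6 were 1.32, 1.47 and 1.34 in control and 1.45, 1.55 and 2.25 in cold mice. The groups overlapped, and an exact two-sided permutation test of the log2 ratio gave p = 0.2 (0.4 after Benjamini-Hochberg adjustment over 4 ratios), where 3 against 3 mice cannot go below 0.1.

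Complex III passes electrons from ubiquinol to cytochrome c, and mt-Cytb, cytochrome b, is its mitochondrial subunit. mt-Cytb (ENSMUSG00000064370.1, chrM:14145-15288, plus strand) had 7394, 7333 and 8294 CPM in control mice 5, 6 and 10, and 9362, 8360 and 10928 CPM in cold mice 7, 12 and 16. Cold and control mice were apart, with cold 12 just above ctrl 10. Means were 7674 ± 538 and 9550 ± 1295 CPM (SD, n = 3), a log2 fold change of 0.34 ± 0.13 (SE, edgeR adjusted p = 0.419).

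Complex I takes electrons from NADH, and its 7 mitochondrial subunits form most of the proton-pumping arm in the membrane. mt-Nd1 (ENSMUSG00000064341.1, chrM:2751-3707, plus strand), at the joint of both arms, had 4169, 5333 and 4661 CPM in control mice 5, 6 and 10, and 5970, 5396 and 5955 CPM in cold mice 7, 12 and 16. Cold mice were all above the controls, with cold 12 close to ctrl 6. Its log2 fold change was 0.32 ± 0.13 (SE, edgeR adjusted p = 0.484). mt-Nd2 (ENSMUSG00000064345.1, chrM:3914-4951, plus strand), a pump subunit, had 2657, 2687 and 2759 CPM in control and 3025, 2895 and 4514 CPM in cold mice. Cold 16 stood apart above the rest, and the log2 fold change of 0.39 ± 0.15 (SE, edgeR adjusted p = 0.419) was 0.17 without it. The small subunit mt-Nd3 (ENSMUSG00000064360.1, chrM:9459-9806, plus strand) had 479, 503 and 522 CPM in control and 552, 499 and 844 CPM in cold mice. Here cold 12 lay within the controls, and the log2 fold change of 0.35 ± 0.16 (SE, edgeR adjusted p = 0.557) was 0.10 without cold 16.

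The other complex I mRNAs of the plus strand are mt-Nd4l, mt-Nd4 and mt-Nd5. mt-Nd4l (ENSMUSG00000065947.3), a small membrane subunit, had 138, 137 and 131 CPM in control mice 5, 6 and 10, and 174, 136 and 204 CPM in cold mice 7, 12 and 16. Cold 12 again lay within the controls, and the log2 fold change of 0.35 ± 0.15 (SE, edgeR adjusted p = 0.539) was 0.21 without cold 16 and 0.19 with X1, the first of the 2 files of each mouse, alone. The large pump subunit mt-Nd4 (ENSMUSG00000064363.1, chrM:10167-11544, plus strand) had 9183, 10258 and 10383 CPM in control and 10116, 10968 and 10383 CPM in cold mice. These values overlapped, with a log2 fold change of 0.10 ± 0.12 (SE, edgeR adjusted p = 0.913). mt-Nd5 (ENSMUSG00000064367.1, chrM:11742-13565, plus strand), the other large pump subunit, had 1731, 1782 and 1639 CPM in control and 1888, 1555 and 1862 CPM in cold mice. Cold 12 was the lowest of all 6 mice, and the log2 fold change was 0.07 ± 0.13 (SE, edgeR adjusted p = 0.947). Reads of mt-Nd4l per 100 reads of mt-Nd4 were 1.498, 1.34 and 1.26 in control and 1.72, 1.24 and 1.97 in cold mice, which overlapped (exact permutation p = 0.4, adjusted 0.533). As for mt-Atp8, the assignment of reads spanning both genes is not given, so the level of mt-Nd4l is uncertain.

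mt-Nd6 (ENSMUSG00000064368.1, chrM:13552-14070), a membrane subunit of complex I, is the one mRNA gene on the minus strand. It had 1624, 1603 and 1585 CPM in control mice 5, 6 and 10, and 1644, 1670 and 2608 CPM in cold mice 7, 12 and 16. The groups did not overlap, but cold 7 and cold 12 lay just above the controls and cold 16 far above. Its log2 fold change of 0.32 ± 0.15 (SE, edgeR adjusted p = 0.580) was 0.08 without cold 16. Reads of mt-Nd6 per 100 reads of its neighbour mt-Cytb were 22.0, 21.9 and 19.1 in control and 17.6, 20.0 and 23.9 in cold mice. The groups overlapped (exact permutation p = 0.8, adjusted 0.8). Guanine made up 28.1% of the bases of mt-Nd6 and 5.88% to 16.1% of those of the 12 mRNAs of the plus strand.

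The rRNAs of the mitochondrial ribosome were low in these poly-A libraries and their groups overlapped in CPM. mt-Rnr1 (ENSMUSG00000064337.1, chrM:70-1024, plus strand), the RNA of the small subunit, had 270, 284 and 236 CPM in control mice 5, 6 and 10, and 256, 242 and 264 CPM in cold mice 7, 12 and 16. mt-Rnr2 (ENSMUSG00000064339.1, chrM:1094-2675, plus strand), the RNA of the large subunit, had 831, 1130 and 851 CPM in control and 1096, 1103 and 972 CPM in cold mice. For both genes the CPM of cold mice fell inside the range of the controls. As a percent of all mitochondrial reads, mt-Rnr1 held 0.469, 0.472 and 0.387 in control and 0.380, 0.376 and 0.337 in cold mice. By this measure each cold mouse was below each control mouse, with cold 7 just below ctrl 10. The tRNA mt-Ty was also lower in every cold mouse, and mt-Co2 and mt-Atp8 were higher. All other mitochondrial genes overlapped by this measure, mt-Rnr2 among them. mt-Ty had only 8, 11 and 9 reads in control mice 5, 6 and 10, and 6, 5 and 4 reads in cold mice 7, 12 and 16. It did not pass the filter on low counts. Log2 fold changes were -0.03 ± 0.13 for mt-Rnr1 and 0.20 ± 0.14 for mt-Rnr2 (SE, edgeR adjusted p = 0.981 and 0.788). Per 100 reads of mt-Rnr1, reads of mt-Rnr2 were 307.9, 397.1 and 361.0 in control and 427.4, 455.0 and 367.6 in cold mice. Cold 16 lay inside the control range (exact permutation p = 0.2, adjusted 0.4).

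**Figure D3:**
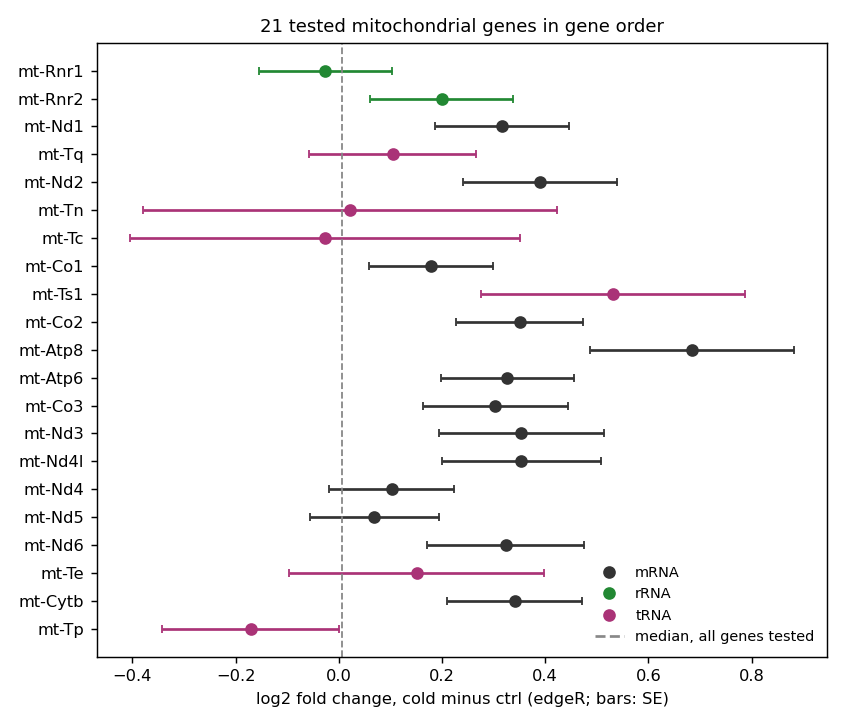
Log2 fold change of cold against control (horizontal axis, edgeR) with its standard error as a bar, for the 21 mitochondrial genes tested, in the order of the genome and coloured by class. All 13 mRNAs lie right of 0, from 0.07 to 0.68, and the dashed line is the median of all 9772 genes tested, 0.01.

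Per length, the mRNAs of control mice covered a wide range although the plus strand is transcribed as one precursor. How much of a transcript each nanopore read covered was not examined, so scaling by length may not suit these reads. By CPM alone, control means were highest for mt-Co1 (10516), mt-Nd4 (9941), mt-Cytb (7674) and mt-Atp6 (7459). They were lowest for mt-Nd4l (135) and mt-Atp8 (103), so the order below holds per kb only. The order in CPM per kb (mean ± SD, n = 3) began with mt-Atp6 at 10952 ± 472 and mt-Co2 at 7920 ± 170. mt-Nd4 (7214 ± 479), mt-Co1 (6807 ± 261) and mt-Cytb (6708 ± 470) followed, and neighbours among these 3 overlapped between control mice. mt-Co3 (5733 ± 449) and mt-Nd1 (4933 ± 611) also overlapped each other. Below them, with no overlap between neighbours, came mt-Nd6 (3091 ± 37.9), mt-Nd2 (2602 ± 50.5) and mt-Nd3 (1440 ± 61.6 CPM per kb). The lowest were mt-Nd5 (942 ± 39.8), mt-Atp8 (503 ± 24.1) and mt-Nd4l (455 ± 13.3 CPM per kb). The overlapping genes mt-Atp8 and mt-Atp6, and likewise mt-Nd4l and mt-Nd4, stood far apart in read level per length although each pair shares a transcript. How reads spanning both genes of a pair were assigned is not given in the sources used here. The low levels of mt-Atp8 and mt-Nd4l are therefore uncertain, and need not be those of separate RNAs. The place of mt-Nd6 is uncertain too, because the use of strand in the counting is not given. In cold mice the order of means was the same except that mt-Cytb came before mt-Nd4 and mt-Co1.

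As shares of the mitochondrial mRNA reads, 2 of the 13 mRNAs (15.4%) were higher in every cold mouse and none was lower in every cold mouse (0.0%). mt-Co2 held 9.64%, 9.42% and 9.46% of these reads in control mice 5, 6 and 10, and 10.2%, 10.1% and 10.1% in cold mice 7, 12 and 16. mt-Atp8 held 0.176%, 0.185% and 0.179% against 0.197%, 0.204% and 0.320%. Both differences are small beside the shares themselves, apart from mt-Atp8 in cold 16. mt-Nd4, with the most reads after mt-Co1, held 16.7%, 17.9% and 17.7% in control and 15.6%, 17.8% and 13.9% in cold mice, and the groups overlapped. The count of 2 was 1 with the second files only and 5 without cold 12.

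Reads on tRNA genes were almost confined to the minus strand. The 8 tRNA genes of that strand held 9376 of the 9476 tRNA reads (98.9%), and the 14 of the plus strand held 100. The highest gene of the plus strand, mt-Th (histidine), had 22 reads over the 6 mice, and the lowest of the minus strand, mt-Ty (tyrosine), had 43. mt-Tw (tryptophan) had 0 reads in all mice, which allows up to 0.491 CPM over the 6 mice together. Of the minus strand, 6 tRNAs passed the filter, and of the plus strand none did. Where the counting did not use strand, reads on a minus-strand gene and reads of the plus-strand precursor over the same bases cannot be told apart. Guanine made up 17.9% to 29.9% of the bases in tRNAs of the minus strand and 7.14% to 21.3% in those of the plus strand.

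mt-Ts1, whose sequence is given above, held 60.5% of all tRNA reads. It had 895, 683 and 854 CPM in control mice 5, 6 and 10, and 659, 834 and 1970 CPM in cold mice 7, 12 and 16. Cold 7 was the lowest of all mice and cold 16 the highest by far. The log2 fold change of 0.53 ± 0.26 (SE, edgeR adjusted p = 0.600) was -0.08 without cold 16. It passed the threshold with no filter on low counts (edgeR adjusted p = 0.0199), where 371 genes passed over all, against 64 in the main fit. mt-Te had 106, 112 and 104 CPM in control and 63.4, 95.6 and 195 CPM in cold mice. Again cold 7 was lowest and cold 16 highest, and the log2 fold change of 0.15 ± 0.25 (SE, edgeR adjusted p = 0.931) was -0.36 without cold 16.

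In none of the other tRNAs tested was cold 7 the lowest mouse, but cold 16 was the highest for mt-Tq and mt-Tc, just above a control mouse. mt-Tq had 331, 446 and 285 CPM in control and 316, 359 and 451 CPM in cold mice, which overlapped (log2 fold change 0.10 ± 0.16, SE, edgeR adjusted p = 0.929). Without cold 16 the log2 fold change of mt-Tq was -0.04. mt-Tp had 89.6, 92.6 and 68.8 CPM in control and 77.2, 77.2 and 63.9 CPM in cold mice. Cold 16 was the lowest mouse for mt-Tp, unlike for mt-Ts1 and mt-Te (log2 fold change -0.17 ± 0.17, SE, edgeR adjusted p = 0.886). mt-Tn (asparagine) and mt-Tc (cysteine) lay between 6.40 and 17.9 CPM in every mouse, with log2 fold changes of 0.02 ± 0.40 and -0.03 ± 0.38 (SE, edgeR adjusted p = 0.996 and 0.995). Without cold 16 these were -0.03 for mt-Tn and -0.36 for mt-Tc.

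**Figure D4:**
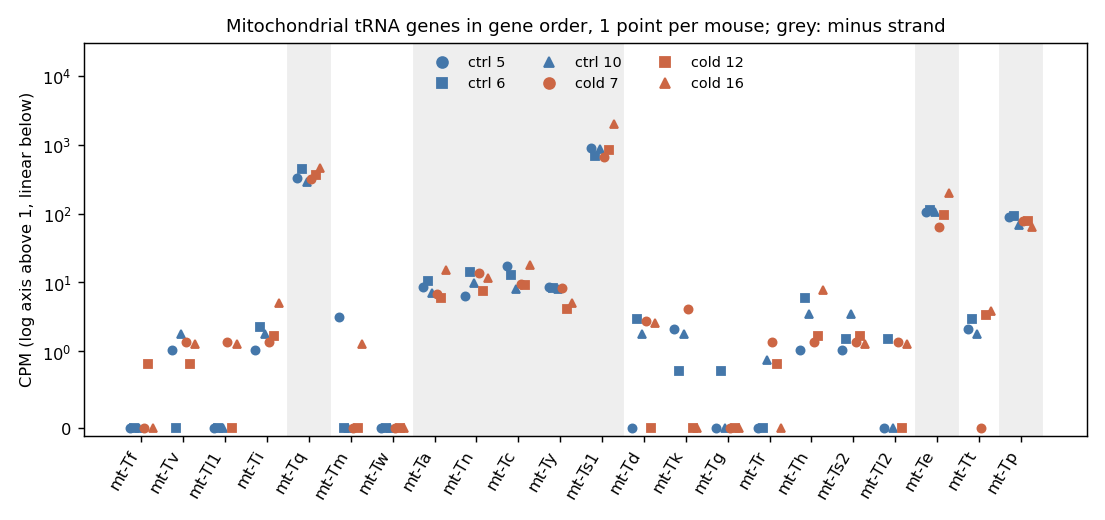
CPM of the 22 tRNA genes (log axis above 1, linear below) in the order of the genome, 1 point per mouse, with genes of the minus strand on grey. The 8 genes on grey hold 98.9% of the tRNA reads, and cold 16 is the highest point of mt-Ts1 and mt-Te.

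Nuclear DNA holds copies of mitochondrial DNA, and annotated transcripts of such copies can take reads of the mitochondrial genes. Among GENCODE M21 transcripts, 15 nuclear genes matched a mitochondrial gene over at least 200 bases at 90% identity or more, and 12 of them had reads, 34343 in all. Of these reads 99.3% fell on 7 copies that lie side by side at chr1:24611535-24616197 on the minus strand, 5 of which were identical to the mitochondrial gene over the aligned bases. Copies took 7.96%, 7.23% and 7.95% of the reads of mitochondrial genes and copies together in control mice 5, 6 and 10, and 7.53%, 7.82% and 10.1% in cold mice 7, 12 and 16. The groups overlapped and cold 16 was highest.

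Gm29216 (chr1:24615706-24616197), which matches 483 bases of mt-Co1 at 99.8% identity, held 20130 reads, 23.0% of those of mt-Co1 and this copy together. It had 2867, 2659 and 3008 CPM in control and 3162, 3191 and 5589 CPM in cold mice. The groups did not overlap, and cold 16 stood apart, with a log2 fold change of 0.51 ± 0.17 (SE, edgeR adjusted p = 0.327). Gm28438, which matches mt-Nd3 over 345 bases at 99.7%, held 26.3% of the reads of mt-Nd3 and this copy. Next by reads were Gm10925 (5906 reads, copy of mt-Atp6), Gm28437 (4235, mt-Co3) and Gm28661 (1635, mt-Co2). All 9 copies tested had a log2 fold change above 0, all were highest in cold 16, and none passed the threshold. With the reads of each copy added to its mitochondrial gene before the fit, mt-Co1 had 13372 ± 272 CPM in control and 15686 ± 1824 CPM in cold mice (SD, n = 3). Its log2 fold change became 0.26 (edgeR adjusted p = 0.608), that of mt-Nd3 0.29 (0.664), and still no mitochondrial gene passed. Reads of a gene and of a copy with the same sequence cannot be told apart by these counts.

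**Figure D5:**
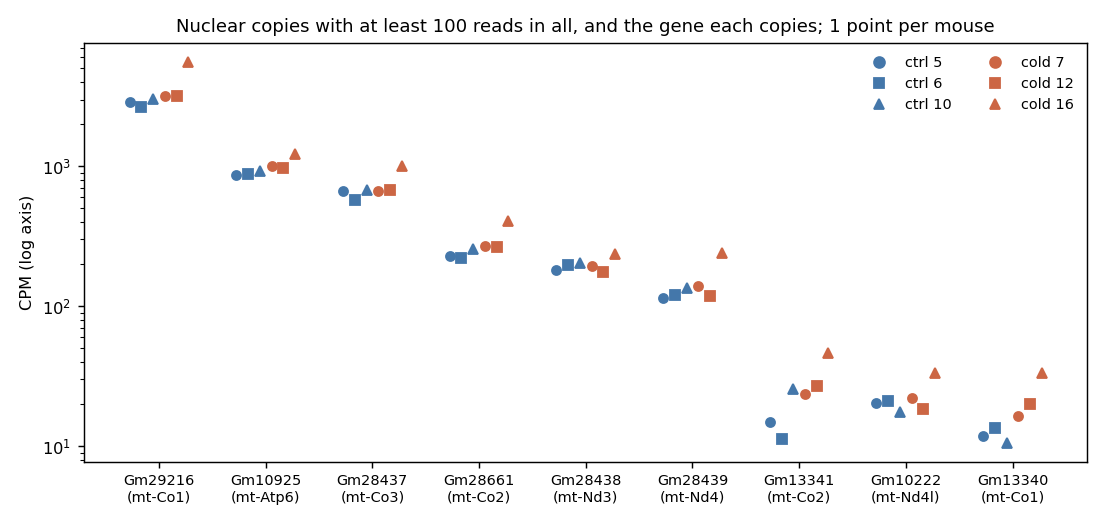
CPM (log axis) of the 9 nuclear copies with at least 100 reads in all, with the mitochondrial gene each one copies in brackets and 1 point per mouse. Cold 16 is the highest point of all 9, and Gm29216, the copy of part of mt-Co1, has the highest levels.

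Nuclear genes that make, process and translate mitochondrial RNA, or that encode subunits of the same complexes, were taken as 10 lists with 258 members, of which 229 were tested. None passed by edgeR, DESeq2 or limma-voom, and 10 had an unadjusted edgeR p under 0.05. Of the 229, 2.62% had such a p and were higher and 1.75% had one and were lower, both below the 4.72% and 3.71% of all genes tested. CPM was higher in every cold mouse for 12 of them (5.24%) and lower for 7 (3.06%), beside 5.96% and 7.7% of all genes tested. By summed CPM, 9 of the 10 lists overlapped between groups. Of 16 genes of mitochondrial transcription and replication, 3 had a log2 fold change above 0 and the median was -0.15. Polg and Polg2, subunits of the mitochondrial DNA polymerase, had 30.0 ± 8.44 and 19.2 ± 4.58 CPM in control and 19.2 ± 1.54 and 10.7 ± 2.89 CPM in cold mice (SD, n = 3, edgeR adjusted p = 0.534 and 0.546). For both, every cold mouse lay below every control mouse. Of 20 genes of RNA processing and stability, 15 were above 0, with a median of 0.19. The summed CPM of this list was the one that did not overlap, at 915, 897 and 886 CPM in control mice 5, 6 and 10, and 1022, 1006 and 920 CPM in cold mice 7, 12 and 16. Cold 16 lay just above ctrl 5. Trub2, a pseudouridine synthase, had 21.3, 12.7 and 15.9 CPM in control and 29.0, 31.0 and 33.2 CPM in cold mice with no overlap (edgeR adjusted p = 0.141), and Tbrg4, an RNA-binding protein of mitochondria, had 15.1 ± 6.00 and 22.5 ± 2.04 CPM (SD, n = 3, edgeR adjusted p = 0.692).

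Genes of the mitochondrial ribosome and of translation lay near the median of all genes. Of 77 ribosomal protein genes 47 were above 0 (median 0.06). Mrps6 had 275 ± 7.78 and 206 ± 52.7 CPM, and Mrpl12 had 68.1 ± 2.22 and 87.5 ± 20.3 CPM, in control and cold mice (SD, n = 3, edgeR adjusted p = 0.522 and 0.566). Of 21 genes of translation factors and tRNA synthetases 11 were above 0 (median 0.06). Tufm, the elongation factor, had 57.6 ± 3.72 and 42.3 ± 5.54 CPM (SD, n = 3, edgeR adjusted p = 0.585). Lars2, the leucyl-tRNA synthetase, had 1035, 1610 and 813 CPM in control mice 5, 6 and 10, and 4438, 1628 and 616 CPM in cold mice 7, 12 and 16. Cold 7 was far above and cold 16 below all others (edgeR adjusted p = 0.507), and the groups overlapped. Lars2 passed the threshold by edgeR without cold 16 (adjusted p = 0.0117) and with no filter (9.65e-10). With no filter 371 genes passed over all, against 64 in the main fit.

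For nuclear subunits of the complexes, with the inhibitor Atpif1 counted in complex V, the median difference was small. Of 75 tested, 59 had a log2 fold change above 0, with a median of 0.08 beside 0.33 for the 13 mRNAs and 0.01 for all genes. That difference between the medians was not tested. By complex, 26 of 36 were above 0 in complex I, 9 of 9 in III, 11 of 13 in IV and 13 of 17 in V, with medians of 0.07, 0.10, 0.11 and 0.08. In complex I, Ndufc1 had 336 ± 32.6 and 406 ± 21.5 CPM and Ndufa3 574 ± 41.5 and 660 ± 57.0 CPM in control and cold mice (SD, n = 3, edgeR adjusted p = 0.539 and 0.679). In complex III, Uqcr11 had 500 ± 50.6 and 578 ± 73.7 CPM and Uqcrq 566 ± 23.8 and 639 ± 34.4 CPM (SD, n = 3, edgeR adjusted p = 0.704 and 0.729). In complex IV, Cox8b, an isoform of brown and beige fat and muscle, had 28.5 ± 11.6 and 45.1 ± 20.2 CPM, and Cox6a1 had 936 ± 53.7 and 1032 ± 47.4 CPM (SD, n = 3, edgeR adjusted p = 0.573 and 0.811). In complex V, Atp5g1, a subunit of the rotor ring, had 170 ± 6.57 and 208 ± 7.15 CPM, and Atpif1, an inhibitor of the ATP synthase, had 106 ± 8.33 and 128 ± 10.3 CPM (SD, n = 3, edgeR adjusted p = 0.507 and 0.639). Of the 75 genes of these complexes, 5 (6.67%) had a higher CPM in every cold mouse and 1 (1.33%) a lower one, beside 5.96% and 7.7% of all genes tested.

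Set against the summed CPM of the nuclear subunits of the same complex (with Atpif1 in complex V), the mitochondrial mRNAs overlapped between groups in all 4 complexes. The ratio for complex I was 2.04, 2.07 and 2.05 in control mice 5, 6 and 10, and 2.26, 2.03 and 2.41 in cold mice 7, 12 and 16. For complex III it was 2.55, 2.31 and 2.79 against 3.01, 2.46 and 3.36. Complex IV had ratios of 2.09, 1.91 and 1.98 against 2.31, 1.99 and 2.51. In all 3 of these, cold 7 and cold 16 were above every control mouse and cold 12 was not. Complex V had ratios of 0.884, 0.814 and 0.926 against 1.05, 0.896 and 1.18, with the same order.

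Genes of mitochondrial mass (outer membrane, import and carriers) and regulators of mitochondrial biogenesis did not separate the groups by their summed CPM. Of 15 mass genes 10 were above 0 (median 0.06), and the sums were 3719, 3935 and 3671 CPM in control and 3804, 4152 and 3472 CPM in cold mice. Tomm40, the import pore, had 56.7 ± 1.97 and 70.2 ± 4.77 CPM, and Slc25a5, an ADP/ATP carrier, had 372 ± 23.8 and 422 ± 96.0 CPM (SD, n = 3, edgeR adjusted p = 0.610 and 0.803). Of 5 biogenesis regulators tested 3 were above 0 (median 0.06). The nuclear receptor Esrra had 32.4 ± 7.17 and 40.2 ± 5.76 CPM and the transcription factor Gabpa 39.96 ± 5.75 and 31.0 ± 3.83 CPM (SD, n = 3, edgeR adjusted p = 0.767 and 0.788). Brown and beige fat markers (8 genes) summed to 65.1, 78.4 and 75.9 CPM in control and 73.1, 89.7 and 112 CPM in cold mice. These sums overlapped, and cold 16, with the largest mitochondrial share, had the highest. Cold 7, next by mitochondrial share, lay below ctrl 6 and ctrl 10, and a link between both measures was not tested. Of the 8 markers, 3 passed the filter on low counts.

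Apart from the epididymal epithelium markers given above, which were higher in every cold mouse, the summed markers of other cell types overlapped between groups. Skeletal muscle markers (8 genes, Myh4 at 0 in all mice) summed to 13.9 to 20.9 CPM in control and 6.71 to 15.2 CPM in cold mice. Macrophage markers (8 genes) summed to 1156 to 1454 and 964 to 1661 CPM, endothelial markers (7 genes) to 583 to 663 and 518 to 599 CPM. Mesothelial markers (7 genes) summed to 67.9 to 205 and 75.5 to 164 CPM, and erythroid markers (5 genes) to 5326 to 9319 and 4695 to 9068 CPM.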

How the data were processed

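The deposited files hold whole-number read counts for each annotated transcript with reads, in 2 files per mouse (X1 and X2), 12 in all. Reads were aligned with minimap2 to GRCm38, per the submitters' processing notes. Not given in the sources used here are the counting tool, its use of strand, how it placed reads that match several genes, and how X1 differs from X2. Their counts were summed, so each mouse is 1 sample. For 19 mitochondrial genes with at least 20 reads, the chi-square between both files per degree of freedom was 0.841 to 2.60 by mouse, against 1.01 to 1.05 for nuclear genes. The mitochondrial share was higher in X1 in 6 of 6 mice, by 0.148 to 0.337 percentage points.

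Of 61729 transcript identifiers, 61538 matched GENCODE M21 when versions were ignored. The other 191, with 0.139% to 0.165% of the reads, were left out. Counts were summed to 23492 genes and tested with edgeR 4.0.16 (R 4.3.3; quasi-likelihood F test, TMM, filterByExpr with a minimum count of 10, Benjamini-Hochberg over all genes tested, threshold 0.05). Ratios of neighbouring genes were tested by exact permutation. CPM values are not TMM-scaled. Sums over genes carry no p. Nuclear copies were sought with blastn 2.17.0 among annotated transcripts rather than in the genome sequence, which was not used here, so copies without an annotated transcript are not covered.

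The members and lists were chosen with earlier results of these data known. Named are all 13 mRNAs and 2 rRNAs, each tRNA that passed the filter and, of each nuclear list, the 2 genes with the smallest p. Other tRNAs and the copies were named with their values in view. Alternatives were DESeq2 1.42.0, limma-voom (limma 3.58.1), other scalings, filters and denominators, single files, leaving out each mouse and, added after seeing the data, merging copies before the fit. The test was checked on simulated counts, where it called 66.3% of 2-fold and 100% of 4-fold changes. Smaller changes, such as those of the mitochondrial genes, were not simulated, so the check does not show how often they would be called.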

Additional observations from a re-analysis of the deposited data

How the results depend on the processing

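No paired analysis was possible because the groups share no mouse number. Of 332 fold changes of the 21 tested mitochondrial genes under 16 alternatives, 314 kept their direction and side of the threshold, 3 passed it in addition and 15 changed sign. With no filter, 371 genes passed over all, 2 of them mitochondrial (mt-Atp8 and mt-Ts1) and 1 a member of the nuclear lists (Lars2). With X2 files only, 39 genes passed, 5 mRNAs had a higher CPM in every cold mouse and 1 a higher share of mRNA reads. With X1 files only, the log2 ratio of mt-Nd6 to mt-Cytb was 0.012 in place of -0.04. With library totals only, mt-Tn was at -0.00089.

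Leaving out each mouse gave 35 (without cold 12) to 199 (without cold 7) genes passing, and 106 without ctrl 5. Of mitochondrial genes 0 to 1 passed, and of the nuclear lists 0 to 1. The median of the 13 mRNAs was 0.17 to 0.41, the number with a fold change above 0 was 12 to 13, and 9 to 12 had a higher CPM and 2 to 5 a higher share in every cold mouse. The log2 ratio of mt-Nd6 to mt-Cytb was -0.16 to 0.061. Log2 fold changes ranged from -0.10 to 0.031 for mt-Rnr1, -0.00047 to 0.15 for mt-Nd5, -0.037 to 0.31 for mt-Tq, -0.19 to 0.37 for mt-Tn, -0.36 to 0.20 for mt-Tc, -0.080 to 0.79 for mt-Ts1 and -0.36 to 0.40 for mt-Te. The log2 ratio of cold to control shares was -0.13 to 0.56 for tRNAs and -0.034 to 0.49 for genes of the minus strand, with the lowest values without cold 16. The cause of these changes was not tested. With 3 mice per group no exact p can go below 0.1, and tRNAs of the plus strand had too few reads for a test.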
